A study of Mus musculus with 4 samples.

Results

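This account is of p53 and its arrest and stress targets in cultured mouse spermatogonia of 2 strains. The 10 genes, Trp53, Mdm2, Cdkn1a, Gdf15, Fas, Ccng1, Zmat3, Phlda3, Perp and Sesn1, were taken by symbol from a table of 32285 genes, and all 10 had enough counts to be tested. The cells were GS cells, germline stem cell cultures derived from the testes of wild-type mice aged 10 days. There were 2 libraries from strain 129 (titled GS_129) and 2 from C57BL/6 (B6, titled GS_B6_F0), and the labels give neither a substrain nor how many animals or cultures stand behind a library. Whether replicates were grown separately is not stated either, so p-values measure only the spread between these libraries, which may be technical. The labels name no treatment, and the comparison asks how expression differs between 129 and B6.

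The p53 protein is a transcription factor that is kept low by Mdm2, an E3 ubiquitin ligase whose own gene p53 switches on, so that the pair forms a feedback loop. When DNA damage or other stress frees p53 from Mdm2, it binds response elements in its target genes and raises their transcripts. The targets described here stop the cell cycle (Cdkn1a), act back on Mdm2 (Ccng1), take part in stress signals and death (Gdf15, Fas, Perp), restrain growth signalling (Phlda3, Sesn1) or bind RNA (Zmat3). In the male germ line p53 is known for the arrest and loss of damaged germ cells. Because p53 is controlled largely at the level of protein stability, the level of its transcript is a separate quantity from its activity.

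Of the 10 genes, 5 targets were more abundant in 129 than in B6 by more than 2-fold: Gdf15, Phlda3, Cdkn1a, Zmat3 and Ccng1. Without 129 replicate 1, Gdf15 and Phlda3 stayed above 2-fold and the other 3 did not. Among the 5, Gdf15 passed the test across all genes, and the other 4 did not. Trp53 and Mdm2 differed little between the strains, Fas overlapped between them, and Sesn1 and Perp were lower in both 129 libraries. The median log2 fold change (129 over B6) of the 10 genes was 0.77, beside 0.015 over all 16005 genes tested. Both 129 libraries lay above both B6 libraries for 6 of the 10 genes and below them for 2, where these shares were 31.0% and 29.2% of all genes tested and 60.1% did not overlap in either direction. By the quasi-likelihood test of edgeR, with p-values adjusted over all genes (Benjamini-Hochberg), 1 of the 10 was called higher and 0 lower, and 2.86% of all genes were called in either direction (1.84% higher and 1.02% lower in 129). At an unadjusted p under 0.05, 5 of the 10 were higher and 0 lower, beside 15.9% and 12.2% of all genes (28.1% in either direction). DESeq2 called 5 of the 10 higher and 0 lower, where it called 9.63% of all genes higher and 5.70% lower (15.3% in all), and limma-voom called 0 of the 10 and 1.64% of all genes. These are bulk samples, in which a smaller share of cells expressing a gene and less of its RNA per cell cannot be told apart.

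**Figure D1:**
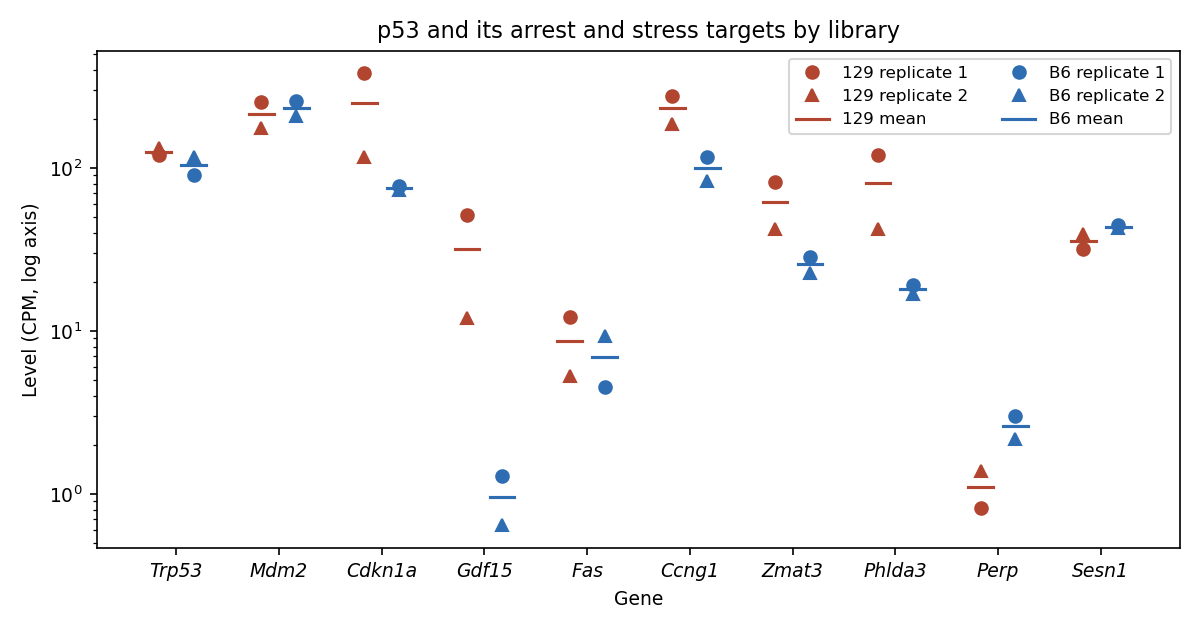
Level of each gene in each library, in CPM (counts scaled to the library's TMM-adjusted total) on a log axis, with 129 to the left of B6, circles for replicate 1, triangles for replicate 2 and a bar at the mean. Gdf15, Cdkn1a, Phlda3, Ccng1 and Zmat3 sit higher in both 129 libraries, with 129 replicate 1 above 129 replicate 2, while Mdm2 and Fas overlap between the strains.

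The sequences before the transcription starts of these genes show where the p53 binding consensus occurs, and 3 are given because their genes cover the range of outcomes, from Cdkn1a and Ccng1, which stood higher in both 129 libraries, to Mdm2, which did not. A p53 response element is a pair of decamers, each 10 bases long, that may be separated by up to 13 bases. The p53 decamer consensus was searched in windows from 250 bases before to 50 bases after each RefSeq start site (build GRCm38.p6), and since its complement reads the same, 1 search covers both strands. RefSeq windows were matched by symbol for 8 of the 10 genes, in 11 windows, and the others were Zmat3 and Perp. At least 1 decamer lay in 5 of the 11 windows, those of Trp53, Mdm2, Cdkn1a, Ccng1 and the downstream start of Sesn1, where 8.36% of 32851 mouse windows held one. A pair of exact matches within 13 bases lay in 1 window of Cdkn1a, as in 0.0731% of all windows. Capitals mark the decamers, and each sequence is written 5′ to 3′ on the strand of the gene:
Cdkn1a, chr17:29090881-29090962, + strand: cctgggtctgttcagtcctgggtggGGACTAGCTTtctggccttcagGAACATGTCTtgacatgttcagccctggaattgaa
Ccng1, chr11:40755437-40755496, - strand: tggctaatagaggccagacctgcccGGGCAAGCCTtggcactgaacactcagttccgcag
Mdm2, chr10:117710910-117710969, - strand: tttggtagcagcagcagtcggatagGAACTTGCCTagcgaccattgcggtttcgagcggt

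The marked Cdkn1a pair has a spacer of 12 bases and lies before the upstream of its 2 RefSeq start sites, which are 2790 bases apart. Only exact matches to the consensus were marked. The bases tgacatgttc, directly after GAACATGTCT, miss the consensus only at their opening base and stay in lower case. The spacer therefore describes the exact matches and not every possible pairing in this sequence. In Ccng1 the bases agacctgccc, directly before GGGCAAGCCT, miss the consensus only at the base after agac and also stay in lower case. The lack of a marked pair in Ccng1 therefore holds for exact matches only. The window of the downstream Cdkn1a start held no decamer, nor did the windows of Gdf15, Fas and Phlda3. This says only that these letters are not within them. A match is a description of the sequence and was not tested as a binding site. Sequence outside these windows was not searched, in Mdm2 or any other gene.

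Trp53, the gene of p53 itself (chr11:69580359-69591873, + strand, mm10), had 119 and 132 CPM in the 129 libraries, against 90.3 and 116 CPM in the B6 libraries. Both 129 libraries were above both B6 libraries, though the lower 129 library and the higher B6 library were close. The means were 126 ± 9.07 CPM in 129 and 103 ± 18.4 CPM in B6 (SD, n = 2 each), a log2 fold change of 0.28 (SE 0.21) that did not pass (edgeR adjusted p = 0.42). Mdm2, the ubiquitin ligase that degrades p53 (chr10:117688875-117710758, - strand), had 253 and 176 CPM in 129, against 255 and 207 CPM in B6. The strains overlapped, and replicate 1 was the higher library in each. Mdm2 averaged 215 ± 54.2 CPM in 129 and 231 ± 34.2 CPM in B6, a log2 fold change of -0.11 (SE 0.23, edgeR adjusted p = 0.79). Its sign turned with the libraries used, to 0.13 without 129 replicate 2 and 0.045 without B6 replicate 1. Mdm2 is itself a p53 target, and with Fas, Perp and Sesn1 it was among the 4 of the 9 targets that were not higher in both 129 libraries.

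Cdkn1a encodes p21, the inhibitor of cyclin-dependent kinases through which p53 arrests cells before S phase (chr17:29090976-29100727, + strand). It had 379 and 117 CPM in the 129 libraries, against 77.3 and 73.0 CPM in the B6 libraries. The B6 libraries were close together, and the 129 libraries were both above them but far apart, by 1.70 on the log2 scale. The means were 248 ± 186 CPM in 129 and 75.2 ± 3.08 CPM in B6, and the log2 fold change was 1.72 (SE 0.51), which did not pass in edgeR (adjusted p = 0.097) and passed in DESeq2 (adjusted p = 0.0075). Without 129 replicate 1 the log2 fold change was 0.64 and without 129 replicate 2 it was 2.34 (edgeR adjusted p = 0.38 and 0.012). A stretch of 273 bases, 7.68% of the Cdkn1a exons, is covered by an unclassified transcript on the opposite strand (AC167363.2), and no source used here says whether the counting used strand.

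Ccng1 encodes cyclin G1, a p53 target that brings a phosphatase to Mdm2 (chr11:40748552-40755311, - strand). It had 277 and 186 CPM in 129, against 117 and 83.0 CPM in B6. The strains were apart and the libraries of each differed by a similar step, 0.57 in 129 and 0.50 in B6 on the log2 scale. Ccng1 averaged 231 ± 64.4 CPM in 129 and 100.1 ± 24.2 CPM in B6, a log2 fold change of 1.21 (SE 0.27) that did not pass (edgeR adjusted p = 0.058). It passed in DESeq2 (adjusted p = 0.0049) and in edgeR without 129 replicate 2 (log2 fold change 1.47, adjusted p = 0.048). Each of the 4 fits with a library left out gave a log2 fold change between 0.90 and 1.47.

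Gdf15, a secreted cytokine induced by p53 and by other stress pathways (chr8:70629393-70632456, - strand), showed the widest difference of the 10 genes. It had 1063 and 253 counts in the 129 libraries, against 32 and 13 counts in the B6 libraries. In CPM these were 51.4 and 11.996 in 129, against 1.29 and 0.644 in B6, so that both B6 libraries were far below both 129 libraries. On the log2 scale the 129 libraries differed from each other by 2.09, more than for any other of the 10 genes. Gdf15 averaged 31.7 ± 27.8 CPM in 129 and 0.965 ± 0.454 CPM in B6 and rose by 4.99 on the log2 scale (SE 0.88, edgeR adjusted p = 0.047). The call ended without 129 replicate 1 (log2 fold change 3.60, adjusted p = 0.14), B6 replicate 1 (5.60, adjusted p = 0.21) or B6 replicate 2 (4.57, adjusted p = 0.15), fits in which edgeR called 0.0782%, 0% and 0.00595% of all genes. It also missed the threshold under no filter on low counts (adjusted p = 0.055), a stricter filter (adjusted p = 0.053) and limma-voom (adjusted p = 0.076).

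Fas, the death receptor at the cell surface (chr19:34290666-34327772, + strand), had 12.1 and 5.31 CPM in 129, against 4.54 and 9.36 CPM in B6. The strains overlapped, with 1 high and 1 low library in each. Fas averaged 8.72 ± 4.82 CPM in 129 and 6.95 ± 3.41 CPM in B6, a log2 fold change of 0.34 (SE 0.57, edgeR adjusted p = 0.73), which turned to -0.37 without 129 replicate 1 and -0.11 without B6 replicate 1. Perp, a membrane protein of desmosomes that p53 also induces in apoptosis (chr10:18845020-18857073, + strand), was scarce. It had 17 and 29 counts in 129, against 75 and 44 counts in B6, or 0.821 and 1.38 CPM against 3.01 and 2.18 CPM. Both 129 libraries were below both B6 libraries, with a log2 fold change of -1.25 (SE 0.53) that did not pass (edgeR adjusted p = 0.18).

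Phlda3 encodes a small protein that competes with the kinase Akt for membrane lipids and so restrains it (chr1:135766119-135769136, + strand). It had 119 and 42.3 CPM in 129, against 19.2 and 16.8 CPM in B6. As with Cdkn1a, the B6 libraries were close together and the 129 libraries lay above them and apart from each other, by 1.49 on the log2 scale. Phlda3 averaged 80.8 ± 54.4 CPM in 129 and 18.0 ± 1.65 CPM in B6, a log2 fold change of 2.16 (SE 0.48) that did not pass in edgeR (adjusted p = 0.059) and passed in DESeq2 (adjusted p = 2.6e-04). Without 129 replicate 1 it was 1.24 (edgeR adjusted p = 0.28) and without 129 replicate 2 it was 2.73 (edgeR adjusted p = 0.014).

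Zmat3, a zinc finger protein that binds RNA (chr3:32334792-32366014, - strand), had 81.4 and 42.2 CPM in 129, against 28.5 and 22.7 CPM in B6. The strains were apart. Zmat3 averaged 61.8 ± 27.8 CPM in 129 and 25.6 ± 4.11 CPM in B6, a log2 fold change of 1.27 (SE 0.36) that did not pass in edgeR (adjusted p = 0.084) and passed in DESeq2 (adjusted p = 0.016). It was 0.72 without 129 replicate 1 (edgeR adjusted p = 0.45) and 1.67 without 129 replicate 2 (edgeR adjusted p = 0.048). Sesn1 encodes sestrin 1, which inhibits the growth kinase complex TORC1 (chr10:41809935-41908424, + strand). It had 31.7 and 39.3 CPM in 129, against 44.4 and 42.8 CPM in B6, so both 129 libraries were slightly lower. The log2 fold change was -0.30 (SE 0.25) and did not pass (edgeR adjusted p = 0.47).

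**Figure D2:**
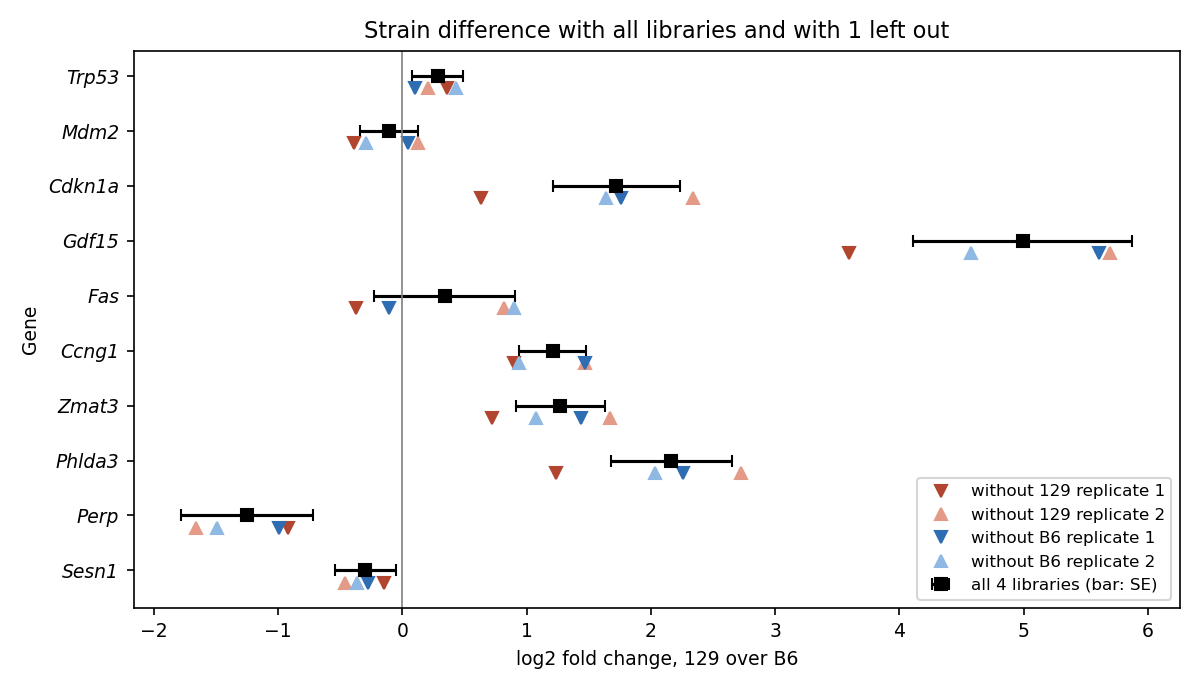
Log2 fold change of each gene, 129 over B6, with all 4 libraries (square, bar for the SE) and with each library left out in turn (triangles). For Cdkn1a the value is 0.64 without 129 replicate 1 and 2.34 without 129 replicate 2, while Mdm2 and Fas change sign with the library left out.

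Several of these genes were far higher in 129 replicate 1 than in 129 replicate 2. On the log2 scale replicate 1 exceeded replicate 2 by 2.09 for Gdf15, 1.70 for Cdkn1a, 1.49 for Phlda3 and 1.18 for Fas. The excess was 0.95 for Zmat3, 0.57 for Ccng1 and 0.52 for Mdm2. This log2 ratio had a median of 0.76 over the 10 genes and -0.0048 over all genes tested. Trp53, Perp and Sesn1 were lower in replicate 1 than in replicate 2 of 129. In B6 the median of the same ratio over the 10 genes was 0.24. With 129 replicate 2 left out, edgeR called 5 of the 10 genes, all higher, beside 4.92% of all genes (4.46% higher and 0.458% lower). With 129 replicate 1 left out it called 0 of the 10, beside 0.0721% of all genes higher and 0.00601% lower. It also called 0 of the 10 when either B6 library was left out, beside 0% of all genes higher in both fits. With the replicate number as a block it called 3 of the 10, all higher, beside 5.27% of all genes (3.89% higher and 1.38% lower). Gdf15, Phlda3, Cdkn1a, Zmat3 and Ccng1 kept a positive log2 fold change in all 13 alternative fits, and Perp a negative one in each of the 12 that tested it.

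Levels of different genes were compared per kb of exon. In 129 the order was Cdkn1a (69.8 ± 52.3 CPM per kb), Ccng1 (65.9 ± 18.3), Phlda3 (51.8 ± 34.9), Mdm2 (42.2 ± 10.7), Trp53 (31.1 ± 2.24), Gdf15 (17.1 ± 15.0), Sesn1 (8.91 ± 1.35), Zmat3 (5.40 ± 2.43), Fas (4.23 ± 2.34) and Perp (0.563 ± 0.201). Among the first 4 the libraries of each overlapped with those of the next, and the same held for Gdf15 and Sesn1 and for Zmat3 and Fas. Genes further apart in the order could differ or overlap. Both Ccng1 libraries (78.9 and 52.9) lay above both Mdm2 libraries (49.8 and 34.7). Phlda3 (76.5 and 27.2) spanned Trp53 (29.5 and 32.7), and Gdf15 (27.7 and 6.48) overlapped with Zmat3 (7.12 and 3.69). In B6 Mdm2 led at 45.5 ± 6.73 CPM per kb, above Ccng1 (28.5 ± 6.88), Trp53 (25.5 ± 4.55), Cdkn1a (21.2 ± 0.868), Phlda3 (11.5 ± 1.06), Sesn1 (10.9 ± 0.294), Fas (3.37 ± 1.65), Zmat3 (2.24 ± 0.359), Perp (1.33 ± 0.302) and Gdf15 (0.521 ± 0.245). There Ccng1 and Trp53, Phlda3 and Sesn1, and Fas and Zmat3 overlapped, and the other neighbours were apart. Mdm2 was thus the most abundant of the 10 genes per kb in B6, and in 129 Cdkn1a, Ccng1 and Phlda3 had means above it. The lowest place was taken by Perp in 129 and by Gdf15 in B6.

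**Figure D3:**
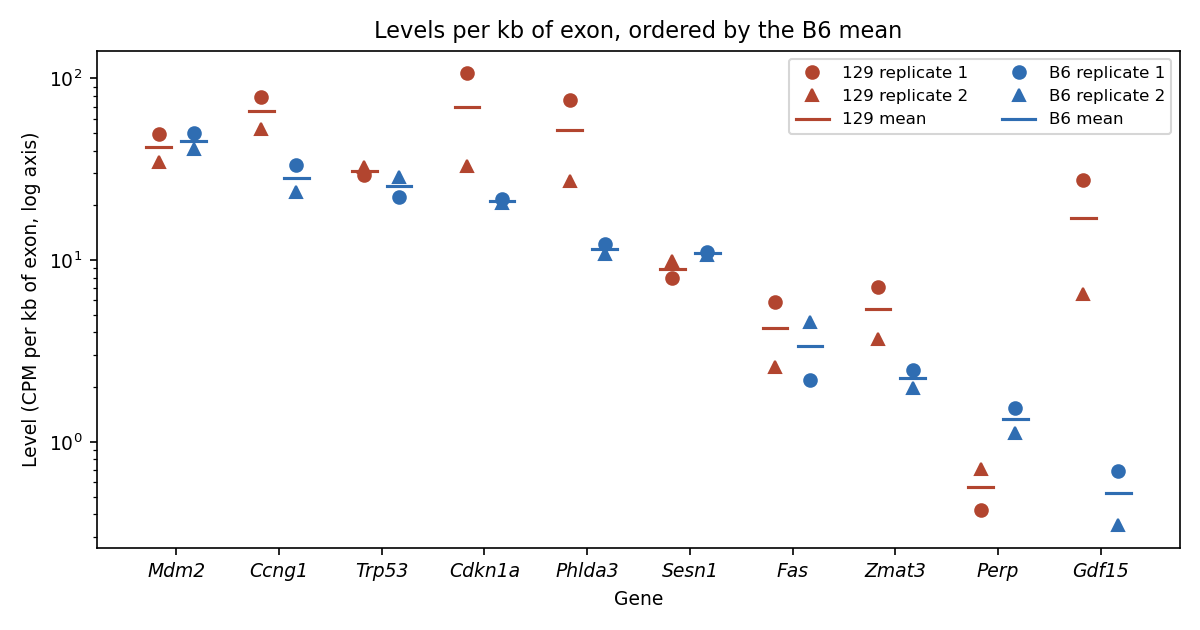
Level of each gene per kb of exon (CPM per kb, log axis), ordered by the B6 mean, with 129 to the left of B6, circles for replicate 1, triangles for replicate 2 and bars at the means. The largest step between the strains is that of Gdf15, at 17.1 in 129 and 0.521 in B6.

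Among other p53 targets, Bbc3 rose and Ppm1d fell. Bbc3, which encodes the pro-apoptotic protein Puma, had 19.6 and 18.3 CPM in 129, against 5.30 and 4.31 CPM in B6 (log2 fold change 1.97, SE 0.37, edgeR adjusted p = 0.049). Ppm1d, a phosphatase that switches off p53 signalling, had 44.3 and 51.9 CPM in 129, against 105 and 109 CPM in B6 (log2 fold change -1.15, SE 0.20, edgeR adjusted p = 0.045). For both genes the libraries of each strain were close together. Of 39 listed targets 38 were tested, Spata18 was not, and 36 did not pass, with 1 higher and 1 lower where 1.84% and 1.02% of all genes were. DESeq2 called 6 higher and 2 lower (9.63% and 5.70% of all genes). Log2 fold changes were positive for 27 of the 38 and negative for 11, beside 8142 and 7863 of the 16005 genes tested. Without overlap, 129 lay above B6 for 21 of the 38 and below it for 5, beside 31.0% and 29.2% of all genes tested. The median log2 fold change of the 38 was 0.53. The median was 0.31 without 129 replicate 1.

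Regulators of p53 and its relatives had mostly negative log2 fold changes. Sirt1, a deacetylase that acts on p53, fell to 54.8 and 65.8 CPM in 129, against 172 and 144 CPM in B6 (log2 fold change -1.39, SE 0.21, edgeR adjusted p = 0.034), and it was the only call among 20 listed genes, where 1.02% of all genes were lower. DESeq2 called 2 of them lower (5.70% of all genes). Of the 20, 15 had a negative and 5 a positive log2 fold change, with a median of -0.34, which was -0.15 without 129 replicate 1. Cell cycle genes that p21 represses through the DREAM complex also leaned lower. Of 26 tested, 3 fell and 23 did not pass, beside 1.02% of all genes lower, and DESeq2 called 8 lower, beside 5.70%. Their median was -0.48, and 23 values were negative, beside 7863 of the 16005 genes tested. The median was -0.33 without 129 replicate 1 and -0.64 without 129 replicate 2. Mki67, the proliferation marker, had 182 and 223 CPM in 129, against 470 and 484 CPM in B6 (log2 fold change -1.23, SE 0.18, edgeR adjusted p = 0.034). Cenpf, a kinetochore protein, had 197 and 280 CPM in 129, against 601 and 498 CPM in B6 (log2 fold change -1.20, SE 0.23, edgeR adjusted p = 0.049). The third was Top2a, a topoisomerase, named after its values were seen (log2 fold change -0.93, SE 0.17, edgeR adjusted p = 0.048). The cyclins and kinases that p21 binds had 0 calls among 8 genes by edgeR, with 2 higher and 2 lower at an unadjusted p under 0.05, and 1 call, higher, by DESeq2. The shares over all genes were 15.9%, 12.2% and 9.63%. Ccnd2, a D-type cyclin, had 835 and 1034 CPM in 129, against 473 and 550.1 CPM in B6 (log2 fold change 0.87, SE 0.19, edgeR adjusted p = 0.055), and Cdk4, its kinase, was at 0.32 (SE 0.20).

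**Figure D4:**
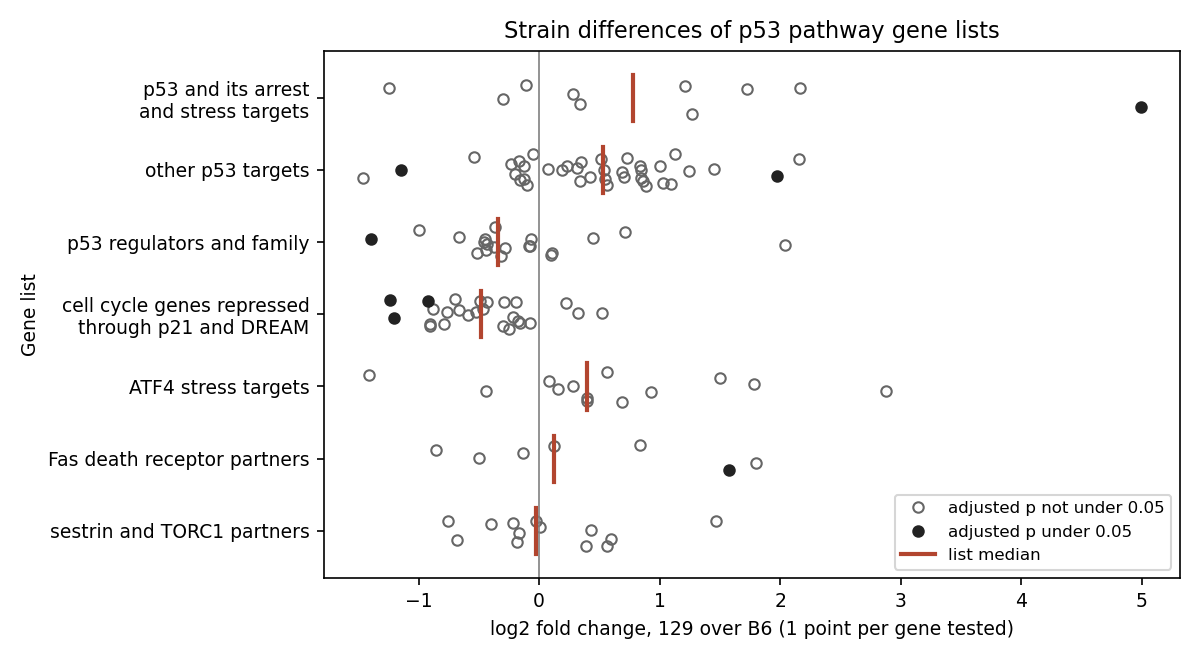
Log2 fold changes, 129 over B6, of the genes tested in 7 lists of the p53 pathway and its neighbours, 1 point per gene, filled where the edgeR adjusted p was under 0.05, with a bar at each list's median. The medians of the 10 genes and of other p53 targets lie at 0.77 and 0.53 (0.50 and 0.31 without 129 replicate 1). Those of the regulators and of the cell cycle genes lie at -0.34 and -0.48 (-0.15 and -0.33 without 129 replicate 1).

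Partners of single members were also counted. Of 7 tested genes of the Fas pathway, 1 rose: Cflar, which blocks caspase 8 at the receptor, had 82.0 and 63.7 CPM in 129, against 25.8 and 23.1 CPM in B6 (log2 fold change 1.57, SE 0.25, edgeR adjusted p = 0.036), where 1.84% of all genes were called higher. DESeq2 called 2 of the 7 higher and 1 lower, beside 9.63% and 5.70% of all genes, and Fasl, the ligand of Fas, was below 1 CPM in every library and not tested. Sestrin and TORC1 partners had 0 calls among 13 by edgeR, with 1 higher and 1 lower at an unadjusted p under 0.05 (15.9% and 12.2% of all genes), and 1 higher by DESeq2 (9.63%). The most abundant were subunits of complexes that control TORC1, Depdc5 with a log2 fold change of -0.40 (SE 0.19) and Seh1l with one of 0.0087 (SE 0.19). Desmosome genes, which encode the junctions that Perp belongs to, had 0 calls among 6 tested by edgeR and by DESeq2, with 2 higher at an unadjusted p under 0.05 (15.9% of all genes). All 6 had a positive log2 fold change, against the negative one of Perp, though without 129 replicate 2, where 7 could be tested, 2 were negative. The most abundant, Pkp4 and Jup, were at 0.28 (SE 0.24) and 0.25 (SE 0.25). Targets of ATF4, a stress transcription factor that also induces Gdf15, had 0 calls among 13 by edgeR, with 4 higher and 1 lower at an unadjusted p under 0.05 (15.9% and 12.2% of all genes), and 4 higher by DESeq2 (9.63%). Their median was 0.39, with 11 positive values, and without B6 replicate 1 it was 0.65, with 9 positive. Atf4 itself was at 289 and 228 CPM in 129, against 132 and 140 CPM in B6 (log2 fold change 0.93, SE 0.20, edgeR adjusted p = 0.054), and the log2 fold change of Phgdh, an enzyme of serine synthesis, was 0.28 (SE 0.36).

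The 7 genes outside the 10 that were called in these lists, Bbc3, Ppm1d, Sirt1, Mki67, Cenpf, Top2a and Cflar, kept their direction in each of the 13 alternative fits. Their calls did not hold without 129 replicate 1, B6 replicate 1 or B6 replicate 2, fits in which edgeR called almost no genes at all. Without 129 replicate 2 the calls of Sirt1, Mki67, Cenpf and Cflar held. Cenpf, Top2a and Bbc3 also missed the threshold with no filter, with the stricter filter, by limma-voom and by the legacy edgeR test (adjusted p of 0.050 to 0.059), and Ppm1d with no filter (adjusted p = 0.058) and by limma-voom (0.055). Sirt1, Mki67 and Cflar passed in these 4 fits.

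The profile of Cdkn1a over the 4 libraries was compared with those of 10254 genes that averaged 10 CPM or more, by the root mean square difference of log2 CPM centred on each gene's mean. The nearest were Ston1 (0.026), Myc (0.060) and Pde2a (0.060), each with its highest level in 129 replicate 1. Myc, for example, had 32.2 and 11.0 CPM in 129, against 7.11 and 6.68 CPM in B6. Among the 10 genes, Phlda3 (0.26), Zmat3 (0.31) and Ccng1 (0.45) were nearest to Cdkn1a, and 120, 178 and 430 of the 10254 genes were nearer than each. With 4 libraries the measure is a description only.

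Library totals were 20798809 and 20375086 counts in 129 and 25374801 and 20488618 counts in B6. Germ cell markers were expressed, with all 14 tested and a summed level of 2654 and 3455 CPM in 129, against 3290 and 3352 CPM in B6. Their log2 fold changes were negative for 11 of the 14, with a median of -0.50 (-0.26 without 129 replicate 1). Of the 14, 7 lay below B6 without overlap and 2 above, beside 29.2% and 31.0% of all genes tested. The call among these markers was Etv5, a transcription factor of spermatogonial stem cells, which rose, where edgeR called 1.84% of all genes higher. It had 202 and 234 CPM in 129, against 59.2 and 80.4 CPM in B6 (log2 fold change 1.64, SE 0.22, edgeR adjusted p = 0.032). DESeq2 called 2 of the germ cell markers higher and 2 lower, beside 9.63% and 5.70% of all genes. Between the 129 libraries (replicate 1 over replicate 2) their median log2 ratio was -0.35. The cell cycle and regulator lists were also lower at the median in 129, and the part of the germ cell markers' levels in that was not tested. Markers of other cells were present too. Of 13 fibroblast markers all were tested and 1, Pdgfra, was called by edgeR (higher, as were 1.84% of all genes). DESeq2 called 4 of the 13 fibroblast markers higher and 5 lower, beside 9.63% and 5.70% of all genes. Their summed level was 3371 and 1377 CPM in 129, against 4730 and 3022 CPM in B6, and between the 129 libraries (replicate 1 over replicate 2) their median log2 ratio was 1.29. Their median log2 fold change between the strains was -0.88, and -0.40 without 129 replicate 2. Of 8 endothelial markers 6 were tested, and edgeR and DESeq2 each called 2 higher, beside 1.84% and 9.63% of all genes. Endothelial markers summed to 204 and 86.7 CPM in 129, against 24.7 and 23.8 CPM in B6, with Tie1 and Emcn below 1 CPM in every library. Most of that sum in 129 was Eng (95.9 and 32.6 CPM in 129, against a mean of 4.87 CPM in B6) and Cdh5 (87.9 and 27.0 CPM in 129, against 0.723 and 2.62 CPM in B6). The median log2 ratio of the endothelial markers between the 129 libraries was -0.19, with Pecam1, Tek and Vwf lower in replicate 1. Of 12 Sertoli cell markers 11 were tested, with 2 higher by edgeR (1.84% of all genes) and 2 higher and 1 lower by DESeq2 (9.63% and 5.70%). Sertoli cell markers summed to 801 and 449 CPM in 129, against 346 and 467 CPM in B6, with Amh, Cldn11 and Fshr below 1 CPM in every library. Most of that sum was Ctsl (513 and 296 CPM in 129, against 298 and 433 CPM in B6). Their median log2 ratio between the 129 libraries was 0.26, with Wt1, Dhh, Aard and Cldn11 lower in replicate 1 and the other tested ones higher. All 5 peritubular muscle markers were tested, with 1 higher by edgeR (1.84% of all genes) and 1 higher and 1 lower by DESeq2 (9.63% and 5.70%). Peritubular muscle markers summed to 92.2 and 39.9 CPM in 129, against 80.5 and 23.4 CPM in B6. Of 8 macrophage markers 4 were tested and edgeR called 0. With edgeR 1 was higher at an unadjusted p under 0.05, and DESeq2 called 1 higher, beside 15.9% and 9.63% of all genes. Macrophage markers summed to 49.8 and 18.3 CPM in 129, against 29.0 and 26.6 CPM in B6, with C1qa, C1qb and Ptprc below 1 CPM in every library. Of 6 Leydig cell markers all but Star were below 1 CPM in every library. The fibroblast, endothelial, Sertoli, peritubular and macrophage sums were higher in 129 replicate 1 than in 129 replicate 2, as Cdkn1a, Gdf15 and Phlda3 were. The endothelial sum was higher through Eng and Cdh5, and the Sertoli sum through Ctsl, Clu and Rhox5. The part of these levels in those results was not tested.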

How the data were processed

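RNA sequencing covered 4 libraries, 2 of 129 and 2 of B6. The values deposited by the authors are raw counts of reads per gene. The submitters' processing notes name HTSeq 0.13.5, HISAT2 2.2.1, DESeq2 1.30.1, cutadapt 3.4, bcl2fastq 2.20 and the build mm10. They state neither the annotation nor whether reads were counted by strand. Per the labels' protocols, libraries were stranded mRNA libraries read as single reads of 76 bp. Reads of 129 cells were aligned to a C57BL/6 reference, which can lose reads at strain variants.

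Groups and replicate numbers came from the titles. Replicates were not duplicates (chi-square per gene 54.6 in 129 and 43.1 in B6). The test was edgeR 4.0.16 (R 4.3.3) on the 16005 genes that filterByExpr kept, with TMM factors and the robust quasi-likelihood test with strain as the only term, at an adjusted p of 0.05, and it was tested on simulated data. SEs were taken as |log2 fold change| over the root of the F statistic. CPM are counts scaled to TMM-adjusted library totals. With 2 libraries per strain the smallest two-sided exact permutation p of a single gene is 0.333.

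Members and lists were chosen with earlier results of these data known. Named genes are the 10 members and, per list, up to 2 called genes a direction by fold, or else the 2 most abundant, and the 3 profiles nearest to Cdkn1a. Where several identifiers share a symbol (38 symbols) the symbol stayed with the highest count. Positions, exon lengths and overlaps came from GENCODE M21 (mm10), and start-site windows from RefSeq. Of 76-base windows of each gene's longest transcript, 0.438% in Trp53 (shared with Trp53-ps) and 0.181% in Zmat3 also occur in transcripts of other genes; in Cdkn1a 9.33% match the opposite-strand transcript, and in the other 7 none do. Alternatives were other scalings (library totals, upper-quartile factors, DESeq2 size factors), no filter, a filter of 50 counts in 2 libraries, DESeq2 1.42.0, limma-voom (limma 3.58.1), a replicate block and each library left out. The legacy form of the edgeR test was added after seeing the data.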

Additional observations from a re-analysis of the deposited data

How the results depend on the processing

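Over all genes, 457 were called in the main fit, 1021 with upper-quartile factors, 1052 with library totals, 260 with no filter, 304 with the stricter filter, 2455 by DESeq2, 263 by limma-voom and 0 to 827 with a library left out. Among the 10 genes 1 was called in the main fit, 3 with upper-quartile factors, 3 with library totals, 0 with no filter, 0 with the stricter filter, 5 by DESeq2, 0 by limma-voom and 0 to 5 with a library left out. Their median of 0.77 was 1.21 with the stricter filter, which tests 9 of them, since Perp has too few counts, and 0.50 to 1.14 with a library left out. Among other p53 targets 2 were called, 4 with library totals, 0 with no filter, 1 with the stricter filter, 8 by DESeq2, 0 by limma-voom, 1 with the legacy edgeR test and 0 to 2 with a library left out; their median of 0.53 was 0.31 to 0.55 with a library left out. The log2 fold change reversed for Fas without 129 replicate 1 (-0.37) and B6 replicate 1 (-0.11), in a range of -0.37 to 0.90 with a library left out, and for Mdm2 without 129 replicate 2 (0.13) and B6 replicate 1 (0.045), in a range of -0.39 to 0.13; the other 8 genes kept their direction in every fit that tested them. With the replicate number as a block, edgeR called 844 genes and 3 of the 10, Gdf15 (adjusted p = 0.012), Ccng1 (0.031) and Phlda3 (0.040), beside 457 and 1 without it, and 3 other p53 targets beside 2. The labels do not say that equal numbers pair libraries, and the deviations of same-numbered libraries from their group means correlated at -0.014 across genes. Apart from fits with fewer genes or libraries by construction, the cause of these changes was not tested. A fit with a library left out has 1 sample in an arm, which is assumed to vary like the other group. Counts were lowest for Gdf15 in B6 (32 and 13) and for Perp (17 to 75 per library), which limits the precision of both.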

Other observations

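Trp53cor1, a long non-coding RNA gene induced by p53 and named here after its values were seen, had 52 and 29 counts in 129, against 17 and 4 counts in B6 (log2 fold change 2.06, SE 0.69), and did not pass (edgeR adjusted p = 0.12).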
